A study of Mus musculus with 20 samples.

Results

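Cxcl9, Cxcl10 and Cxcl11 encode the 3 CXC chemokines that bind the receptor CXCR3, and their transcripts were followed in mouse bone marrow-derived macrophages (BMDMs) given fractions of inflamed airway fluid. The members were taken by gene name from the deposited gene table. All 3 were found, as ENSMUSG00000029417, ENSMUSG00000034855 and ENSMUSG00000060183, among 78409 entries, of which 34373 had a count in at least 1 library. Bulk 3′ end RNA sequencing covered 20 libraries in 5 groups of 4. The macrophages were wildtype, grown from the marrow of female C57BL/6J mice with L929 fibroblast-conditioned medium, and they received PBS or a fraction on day 7 of culture in serum-free Opti-MEM. Fractions came from the bronchoalveolar lavage fluid (BALF) of mice with ovalbumin-induced airway inflammation, and they were kept for 5 days at 4°C before use. The donors of the fluid were RNY1+/+ or RNY1-/- (a CRISPR deletion of RNY1, a small noncoding YRNA), so genotype here is a property of the fluid and never of the macrophages. EVFx, the fraction enriched for extracellular vesicles, was added at 35000000 particles per µL, and ProteinFx, the later protein-enriched fraction of the same size exclusion column, at 0.75 µg of protein per µL. The 2 fractions were thus dosed on different scales, and a difference between them cannot be told apart from a difference in dose. All library names share the same prefix, which is not said to mark a batch. The length of treatment, as well as the origin of the replicates (separate mice, fluid pools or wells), is not given in the sources used here. The p-values therefore measure only the spread between these libraries.

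The CXCR3 ligands are small secreted chemokines that draw activated T cells and natural killer cells toward inflamed tissue. Macrophages are among their classic producers. Cxcl9, known as the monokine induced by interferon gamma, depends mainly on interferon gamma and IRF1, whereas Cxcl10 is also switched on by type I interferon and by NF-kB. Cxcl11 is the ligand with the highest affinity for CXCR3 in humans. In C57BL/6 mice, the Cxcl11 reading frame carries a frameshift, so that its RNA is not expected to yield the full chemokine. Accordingly, its class differs between annotations, with protein coding in the deposited table, polymorphic pseudogene in a GENCODE annotation of GRCm38 and transcribed pseudogene in RefSeq.

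The ligand genes lie side by side on the minus strand of chromosome 5, within 44139 bp. In GRCm38, Cxcl9 occupies chr5:92321347-92328079, Cxcl10 chr5:92346638-92348889 and Cxcl11 chr5:92359544-92365485. The authors aligned to GRCm39, so these positions describe the locus and were not used to count reads. Art3, an ADP-ribosyltransferase gene, runs over Cxcl10 and Cxcl11 on the opposite strand (chr5:92331827-92414628). Counting was strand-specific, and Art3 itself reached at most 13 counts in any library. The RefSeq promoters (GRCm38.p6, minus strand, 250 bases before to 50 bases after the start) of Cxcl9, chr5:92328030-92328329, and Cxcl10, chr5:92348840-92349139, are shown because these neighbours moved apart in the results that follow. Capitals mark the matches to the motifs searched.
Cxcl9: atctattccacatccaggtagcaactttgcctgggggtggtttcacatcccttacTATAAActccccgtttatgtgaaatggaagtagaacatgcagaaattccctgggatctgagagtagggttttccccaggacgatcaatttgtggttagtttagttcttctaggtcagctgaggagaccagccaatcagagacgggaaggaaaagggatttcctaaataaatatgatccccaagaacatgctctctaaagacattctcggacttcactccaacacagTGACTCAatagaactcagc
Cxcl10: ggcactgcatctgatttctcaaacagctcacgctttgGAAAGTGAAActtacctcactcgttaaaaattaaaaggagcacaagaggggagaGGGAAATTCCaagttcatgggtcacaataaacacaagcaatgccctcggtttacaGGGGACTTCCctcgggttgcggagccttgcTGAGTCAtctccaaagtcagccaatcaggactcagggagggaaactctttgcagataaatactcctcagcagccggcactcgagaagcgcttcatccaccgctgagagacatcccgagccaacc

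The Cxcl10 window held an interferon-stimulated response element core (ISRE, searched as GAAA repeated after a gap of 2 bases) that began 213 bases before the start, a pair of kappaB motifs (GGG and TTCC with a gap of 3 bases) at 159 and 104 bases before it, and an AP-1 motif (TGANTCA) at 74. The Cxcl9 window held TATAAA at 195 bases before the start and an AP-1 motif 31 bases after it, and none of the other motifs. A second kappaB form (GGG and TTTCC with a gap of 2 bases, which can overlap the first) and the GAS motif (TTCNNNGAA) matched neither window. Over both strands of 32851 RefSeq promoters of this length, 3.44% held the ISRE core, 5.56% the matched kappaB form, 1.63% the other, 8.3% GAS, 7.81% AP-1 and 13.6% TATAAA. These are letter matches in a short window and not mapped binding sites, and response elements of other forms were not searched. A promoter of Cxcl11 was not analysed here.

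Library totals ranged from 2510005 to 8277366 counts of molecules, and values are given as CPM, counts scaled to the same total in every library. The labelled cell type was borne out by its markers, since 9 of 9 macrophage markers were detected in every group with summed levels of 8585 to 13579 CPM. The T and natural killer cell list summed to 0 to 9.22 CPM and Klrb1c was at 0 in every group. Neutrophil markers summed to 143 to 353 CPM, Ly6g being at 0 in 4 of the 5 groups, and the epithelial and fibroblast lists did not exceed 32.0 and 23.3 CPM. Bulk RNA does not tell more expressing cells apart from more RNA per cell.

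All 3 ligand genes were low in PBS-treated BMDMs and higher by CPM in every library given a fraction. For Cxcl11 this rests in part on depth, since RNY1-/- ProteinFx replicate 4 and PBS replicate 2 held 1 count each. A gene was called when its adjusted p was under 0.05 and its log2 fold change exceeded 1 in either direction (edgeR's quasi-likelihood test, Benjamini-Hochberg over all genes tested). Against PBS, the members called higher numbered 2 of 2 tested for RNY1+/+ EVFx, 2 of 2 for RNY1-/- EVFx, 3 of 3 for RNY1+/+ ProteinFx and 2 of 2 for RNY1-/- ProteinFx. Of all genes tested, 8.24%, 9.03%, 8.96% and 6.31% were called higher in these comparisons. Cxcl11 passed the low-value filter against PBS only through RNY1+/+ ProteinFx, the group where it was high. The 4 comparisons share the same PBS libraries.

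Cxcl9 stood at 0.615, 0.618, 0.457 and 0.534 CPM in the PBS libraries, which is 2 to 4 counts each. In RNY1+/+ EVFx it read 22.5, 23.5, 17.2 and 27.1 CPM. The RNY1-/- EVFx libraries held 15.8, 24.4, 10.1 and 23.2 CPM. RNY1+/+ ProteinFx was the lowest and tightest of the fraction-treated groups, with 6.70, 7.35, 5.78 and 7.11 CPM. The RNY1-/- ProteinFx libraries, at 12.1, 21.7, 17.5 and 21.8 CPM, overlapped both EVFx groups and lay wholly above RNY1+/+ ProteinFx. The log2 fold changes of Cxcl9 against PBS were 5.46 (SE 0.24, adjusted p = 3.4e-08, edgeR) for RNY1+/+ EVFx, 5.23 (SE 0.38) for RNY1-/- EVFx, 3.70 (SE 0.26) for RNY1+/+ ProteinFx and 5.03 (SE 0.31) for RNY1-/- ProteinFx. Thinning every library to the smallest gave 4.74 for RNY1+/+ EVFx and 2.95 for RNY1+/+ ProteinFx, both called. Because PBS held 12 Cxcl9 counts in all, the ratio of pooled counts for RNY1+/+ EVFx, 41.2, has a 95% exact counting interval of 23.4 to 80.2, and that for RNY1+/+ ProteinFx, 12, one of 6.66 to 23.9.

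Cxcl10 ordered the groups differently. Its PBS libraries read 2.66, 5.56, 5.95 and 5.52 CPM, the first of them less than any other. RNY1+/+ EVFx split into a higher and a lower pair, at 246, 207, 73.3 and 93.6 CPM. In RNY1-/- EVFx the values were 261, 245, 128 and 194 CPM, within or just above that range. RNY1+/+ ProteinFx gave the highest Cxcl10 of all, 430, 581, 318 and 507 CPM, with no overlap with any other group. RNY1-/- ProteinFx gave 66.7, 71.2, 136 and 109 CPM, the lowest of the fraction-treated groups by mean. Log2 fold changes against PBS were 5.15 (SE 0.45), 5.62 (SE 0.28), 6.70 (SE 0.26) and 4.34 (SE 0.32) in the order RNY1+/+ EVFx, RNY1-/- EVFx, RNY1+/+ ProteinFx and RNY1-/- ProteinFx. The largest adjusted p among them was 4.7e-06 (edgeR).

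Cxcl11 was scarce throughout, and its values rest on few molecules. The PBS libraries held 0, 1, 0 and 0 counts. RNY1+/+ EVFx held 16, 8, 2 and 5 counts, RNY1-/- EVFx 17, 10, 3 and 6, and RNY1-/- ProteinFx 6, 4, 5 and 1. RNY1+/+ ProteinFx stood apart with 21, 35, 14 and 47 counts, or 4.02, 8.87, 3.52 and 8.15 CPM. It was the only group whose Cxcl11 values lay wholly above those of all 4 others. Its log2 fold change against PBS was 6.58 (SE 0.67, adjusted p = 1.1e-05, edgeR), but with 1 PBS count the fitted value depends on the prior count, and without PBS replicate 2, which holds that count, it was 7.97. The ratio of pooled counts was 132, with a 95% exact counting interval of 23.2 to 5260, and for RNY1-/- ProteinFx it was 18.2 with an interval of 2.82 to 762. For RNY1+/+ EVFx the ratio was 22.8 (3.80 to 930) and for RNY1-/- EVFx 31.6 (5.32 to 1282), so the counting intervals of all 4 ratios overlap.

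**Figure D1:**
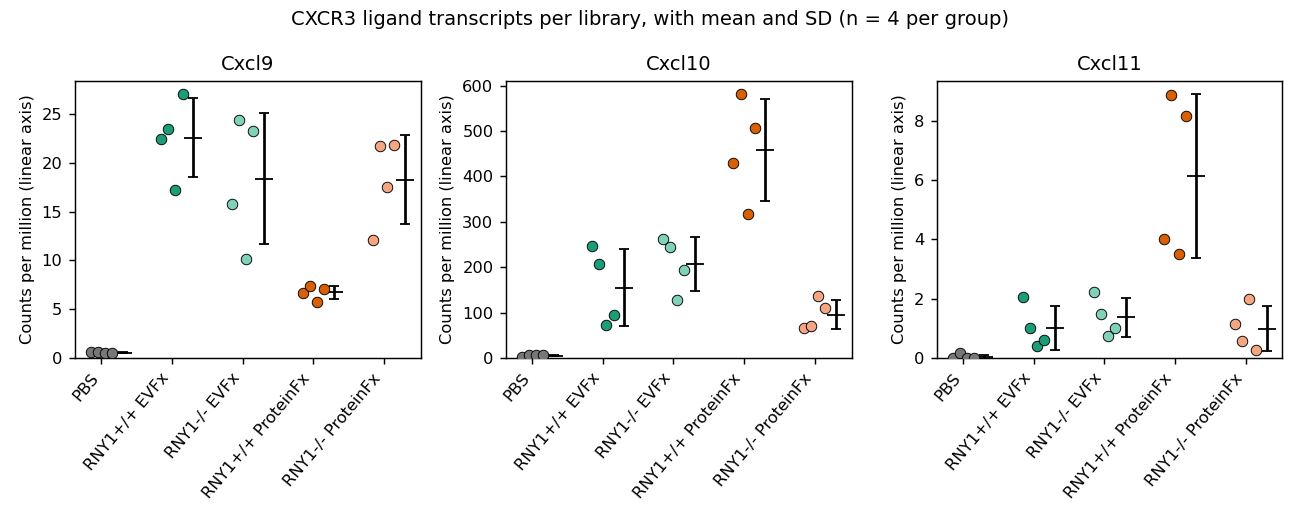
CPM of Cxcl9, Cxcl10 and Cxcl11 (linear axes from 0, a separate scale for each gene) in each of the 20 libraries by group, with the group mean and SD (n = 4) beside the points. Cxcl9 is lowest among fraction-treated groups in RNY1+/+ ProteinFx (mean 6.74 CPM), where Cxcl10 (459 CPM) and Cxcl11 (6.14 CPM) are highest.

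By mean CPM, Cxcl9 ran RNY1+/+ EVFx (22.6 ± 4.07, SD, n = 4), RNY1-/- EVFx (18.4 ± 6.72), RNY1-/- ProteinFx (18.3 ± 4.57), RNY1+/+ ProteinFx (6.74 ± 0.692) and PBS (0.556 ± 0.0764). Cxcl10 ran RNY1+/+ ProteinFx (459 ± 113), RNY1-/- EVFx (207 ± 60.0), RNY1+/+ EVFx (155 ± 84.5), RNY1-/- ProteinFx (95.7 ± 32.8) and PBS (4.92 ± 1.52), and Cxcl11 followed this second order. Between neighbours in these orders, 6 of the 12 steps showed complete separation, each with an exact two-sided permutation p of 0.0286 on log2(CPM + 1), the smallest that 4 against 4 allows. With 6 of the 12 steps at this p, Benjamini-Hochberg adjustment gives 0.0571, and no step passed 0.05. Among the 6, the Cxcl11 step from RNY1-/- ProteinFx to PBS separated by depth alone, with 1 count in each of the closest libraries. The steps that did not separate were those between both EVFx groups for every ligand, that from RNY1-/- EVFx to RNY1-/- ProteinFx for Cxcl9, and that from RNY1+/+ EVFx to RNY1-/- ProteinFx for Cxcl10 and Cxcl11, with exact p from 0.286 to 0.943.

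Whether the loss of RNY1 from the fluid changed the macrophage response was asked separately for each fraction. In ProteinFx, all 3 ligand genes differed by source genotype, and not in the same direction. Cxcl9 was 2.71 times higher by mean CPM with RNY1-/- than with RNY1+/+ ProteinFx, whereas Cxcl10 was 4.79 times and Cxcl11 6.23 times lower. For none of the 3 did the groups overlap. The log2 fold changes were 1.35 for Cxcl9 (SE 0.21, adjusted p = 0.0029), -2.36 for Cxcl10 (SE 0.25, adjusted p = 0.00019) and -2.90 for Cxcl11 (SE 0.47, adjusted p = 0.0034) with edgeR. Cxcl11 passed the 3 CPM limit here through RNY1+/+ ProteinFx alone, the group where it is high, so its call and rank are conditional on that, and with no filter its fold change was -2.86. The members called were 1 higher and 2 lower, or 1 and 1 without Cxcl11, where 0.659% of 10468 genes were called higher and 1.17% lower. Ordered from the lowest fold change, Cxcl11 was number 4 and Cxcl10 number 8 of the genes tested, and Cxcl9 was number 27 from the highest. The study chose Cxcl10 for qPCR among candidates picked from these libraries, so its call here is not independent evidence of its direction.

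The RNY1-/- ProteinFx libraries formed pairs, with replicates 1 and 2 below replicates 3 and 4 for Cxcl10. Without replicates 1 and 2 the genotype difference of Cxcl10 was -1.95, and without replicates 3 and 4 it was -2.87, called in both. Cxcl9 gave 1.52 and 1.21 in the same fits, and Cxcl11 gave -2.69 and -3.03, all called with edgeR. Replicate 3 of this group was also the shallowest library, at 2510005 counts.

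In EVFx, no difference by source genotype was called for the ligands. Cxcl9 had a log2 fold change of -0.21 (SE 0.21, adjusted p = 0.41) and Cxcl10 one of 0.49 (SE 0.32, adjusted p = 0.22) with edgeR, for RNY1-/- against RNY1+/+ EVFx. Both groups overlapped for all 3 genes, and 0 of 2 members tested were called, against 2.35% of 10320 genes. In the main fit neither member passed an unadjusted p of 0.05, nor was either called by DESeq2. For Cxcl10 the adjusted p depended on the setting. It was 1.6e-05 with no filter (log2 fold change 0.45) and 0.0022 with replicate number added to the fit (0.59), both with edgeR. Its estimate stayed under the fold limit of 1 in every setting, so it could not be called. Cxcl11 was below the filter, with 31 counts over the RNY1+/+ EVFx group and 36 over the RNY1-/- EVFx group. The spread of Cxcl10 in RNY1+/+ EVFx (3.35 times from the lowest to the highest library) limits what could be detected here.

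The genotype difference itself differed between the fractions for both members that could be tested. The interaction term over 16 libraries, ProteinFx minus EVFx, was 1.55 for Cxcl9 (SE 0.34, adjusted p = 0.0052) and -2.85 for Cxcl10 (SE 0.47, adjusted p = 0.0017) on the log2 scale with edgeR. For comparison, 33.0% of 10444 genes passed the same threshold in either direction, so a passing term is not particular to the ligands. By size, the term of Cxcl10 was the second lowest of all genes tested, and that of Cxcl9 ranked 74 from the highest. Cxcl11 was removed by the 3 CPM limit, and with edgeR's own filter alone its term was -3.42 (adjusted p = 0.0047).

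Between the 2 fractions of RNY1+/+ source, the ligands again moved apart. RNY1+/+ ProteinFx gave 3.35 times less Cxcl9 than RNY1+/+ EVFx by mean CPM, 2.96 times more Cxcl10 and 6.03 times more Cxcl11, with no overlap in any of them. The log2 fold changes were -1.75 for Cxcl9 (SE 0.16, adjusted p = 3.2e-07), 1.56 for Cxcl10 (SE 0.30, adjusted p = 0.00036) and 2.52 for Cxcl11 (SE 0.41, adjusted p = 9.0e-05) with edgeR. Cxcl11 again entered through RNY1+/+ ProteinFx alone, and with no filter its fold change was 2.39. The count was 2 members higher and 1 lower, or 1 and 1 without Cxcl11, where 6.71% of genes were called higher and 6.82% lower. With RNY1-/- fluid the pattern was another. Cxcl10 was 2.16 times lower in RNY1-/- ProteinFx than in RNY1-/- EVFx (log2 fold change -1.30, SE 0.26, adjusted p = 0.0025, edgeR), though its highest ProteinFx library exceeded its lowest EVFx library. Cxcl9 showed a log2 fold change of -0.21 (SE 0.27, adjusted p = 0.62, edgeR). That is 1 of 2 members called lower, against 4.15% of genes, and the Cxcl10 call was lost when RNY1-/- ProteinFx replicates 1 and 2 were left out, with a log2 fold change of -0.89 (adjusted p = 0.012, edgeR).

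**Figure D2:**
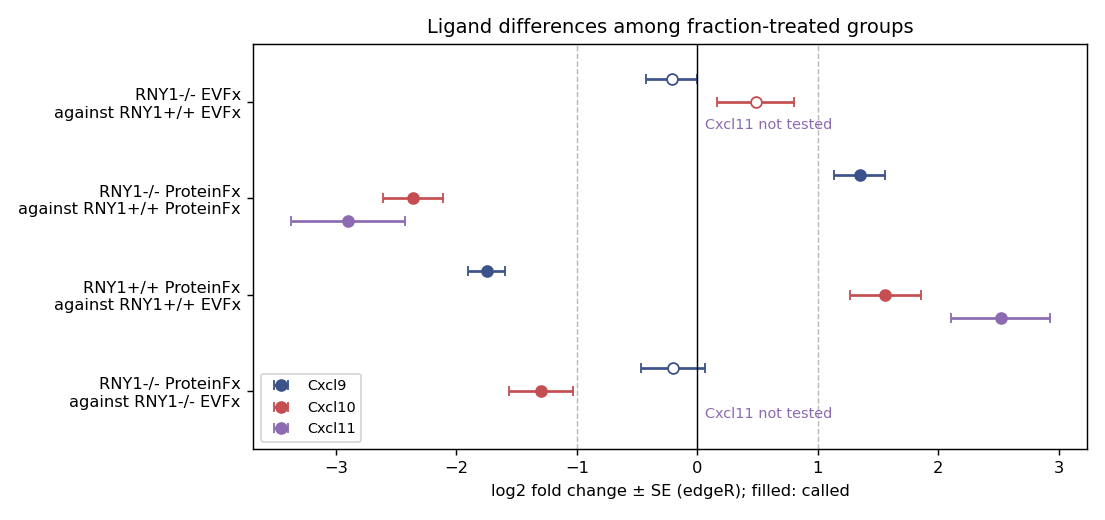
Log2 fold changes of the 3 ligand genes (points, with SE) in 4 comparisons among the fraction-treated groups, 8 libraries each; filled points were called, and dashed lines mark log2 fold changes of 1 and -1. Cxcl9 lies opposite to Cxcl10 and Cxcl11 wherever RNY1+/+ ProteinFx is compared, at 1.35 against -2.36 and -2.90 by source genotype and at -1.75 against 1.56 and 2.52 by fraction.

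The balance between ligands within a library does not depend on its depth or scaling. In RNY1+/+ EVFx there were 10.9, 8.81, 4.26 and 3.46 Cxcl10 counts for each Cxcl9 count, and in RNY1-/- EVFx 16.6, 10.1, 12.7 and 8.34. RNY1+/+ ProteinFx raised this ratio to 64.2, 79.1, 55.0 and 71.2. With RNY1-/- ProteinFx it was 5.52, 3.28, 7.75 and 5.01, below every RNY1-/- EVFx library. The difference by source genotype in ProteinFx was -3.70 on the log2 scale (SE 0.28, exact two-sided permutation p = 0.0286, adjusted 0.0571 over 12 ratio tests), and that between RNY1+/+ fractions was 3.44 (SE 0.42, the same exact p). In EVFx the genotype difference was 0.91 (SE 0.45, exact permutation p = 0.143). The smallest p that 4 against 4 allows is 0.0286, which 6 of the 12 tests reached, and none passed 0.05 after adjustment. The ratio of Cxcl11 to Cxcl10 was 1.04 higher on the log2 scale in RNY1+/+ ProteinFx than in RNY1+/+ EVFx (SE 0.26, exact permutation p = 0.0286), and its other 3 contrasts had exact p of 0.486 or more. These are ratios of 3′ end counts, compared between groups only, and not ratios of transcript copies.

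**Figure D3:**
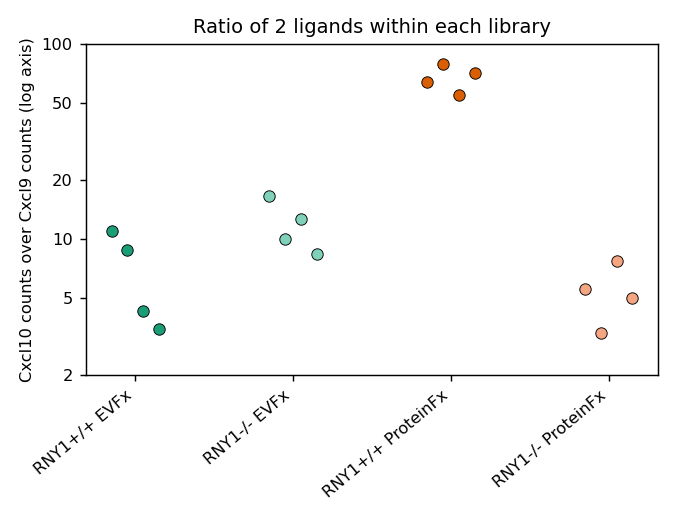
Cxcl10 counts divided by Cxcl9 counts within each of the 16 fraction-treated libraries (log axis), 4 points per group. The RNY1+/+ ProteinFx libraries lie between 55.0 and 79.1, and the other 12 lie between 3.28 and 16.6.

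By source genotype in ProteinFx, Cxcl10 and Cxcl11 were lower, as were 6 of 16 other interferon-induced genes tested, while Cxcl9 was higher and the remaining 10 were not called. The comparison list held 18 genes of the interferon response outside the chemokine family, of which 16 were tested. Against PBS, 16 of 16 were called higher with RNY1+/+ EVFx, RNY1-/- EVFx and RNY1+/+ ProteinFx, and 15 of 15 with RNY1-/- ProteinFx, with median log2 fold changes of 4.20, 3.98, 4.83 and 3.28. The largest rises with RNY1+/+ ProteinFx were those of Nos2 (inducible nitric oxide synthase, 5.81), the guanylate-binding proteins Gbp2 (5.37) and Gbp3 (5.23), and the antiviral gene Ifit1 (5.25). Between RNY1-/- and RNY1+/+ ProteinFx, where 1.17% of all genes were called lower and 0.659% higher, 6 of 16 were lower and 0 higher. Their median was -0.84 beside 0.02 for all genes tested. Those with the largest falls were Nos2 (-1.75, SE 0.43), the nucleotide kinase gene Cmpk2 (-1.41, SE 0.14), and the antiviral genes Rsad2 (-1.39, SE 0.11) and Mx1 (-1.26, SE 0.12). The falls of Cxcl10 and Cxcl11 were larger in size than any of these. In EVFx, 0 of 16 were called by source genotype, where 2.35% of all genes were, with a median of 0.001 beside -0.001 for all genes. Mx1 and Ifit1 were, like Cxcl10, measured again by qPCR in the study after interferon-associated candidates had been chosen from these libraries. Their direction in these libraries is thus not independent of that choice. For its qPCR the study reports some variability between replicates and a consistent trend to lower induction of such transcripts with RNY1-/- ProteinFx.

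**Figure D4:**
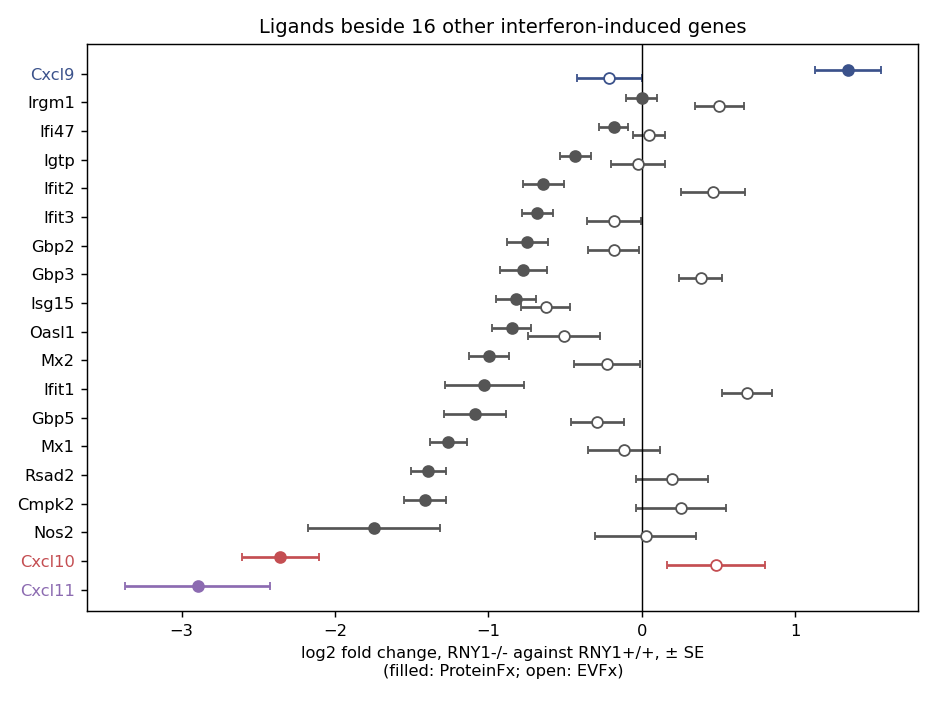
Log2 fold changes (with SE) by source genotype, RNY1-/- against RNY1+/+, of the 3 ligands and 16 interferon-induced genes, in ProteinFx (filled, by which the genes are ordered) and in EVFx (open); Cxcl11 was not tested in EVFx. Cxcl9 (1.35) is at the upper end, and Cxcl10 (-2.36) and Cxcl11 (-2.90) are at the lower end, beyond Nos2 (-1.75).

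Interferon signal transmission was read from a list of 10 receptors and transducers. Against PBS, 4, 3, 3 and 3 were called higher in the order RNY1+/+ EVFx, RNY1-/- EVFx, RNY1+/+ ProteinFx and RNY1-/- ProteinFx. Of all genes tested, 8.24%, 9.03%, 8.96% and 6.31% were called higher in these comparisons. By source genotype, 0 of 10 were called in either fraction. Over all genes, 0.659% were called higher and 1.17% lower in ProteinFx, and 2.35% in either direction in EVFx. A count of 0 among 10 is near these shares and is not particular to this list. Stat2 and Irf9, which encode parts of the type I interferon complex that binds the ISRE, had log2 fold changes by source genotype in ProteinFx of -0.32 (SE 0.13) and -0.05 (SE 0.15), neither of them called.

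Among IRF and NF-kB factor genes, 0 of 10 were called by source genotype in ProteinFx and 2 of 10 were lower in EVFx, Nfkb2 (-1.17) and Rela (-1.08). Over all genes tested, 0.659% were called higher and 1.17% lower in ProteinFx, and 2.35% in either direction in EVFx. The count of 0 is near that share. Irf1, a direct activator of Cxcl9, averaged 35.5 ± 7.25 CPM in PBS, 98.7 ± 12.2 in RNY1+/+ EVFx, 65.1 ± 15.4 in RNY1-/- EVFx, 88.2 ± 12.4 in RNY1+/+ ProteinFx and 112 ± 32.0 in RNY1-/- ProteinFx. The RNY1-/- ProteinFx libraries read 147, 129, 77.3 and 94.2 CPM of Irf1, the last 2 within the RNY1+/+ ProteinFx range of 71.7 to 99.6 CPM. The genotype difference of Irf1 was 0.27 in ProteinFx (SE 0.17, adjusted p = 0.42, edgeR) and not called. Its interaction term, 0.79, passed, as did those of 33.0% of all genes tested. A link between Irf1 and Cxcl9 in these libraries was not tested. Negative regulators of these pathways fell in part. With RNY1-/- ProteinFx, 3 of 9 were lower than with RNY1+/+ ProteinFx, namely the signalling suppressor Socs3 (-1.55), the NF-kB inhibitor Tnfaip3 (-1.10) and Usp18 (-1.09), which restrains type I interferon receptor signalling. In EVFx, 1 of 9 was lower by source genotype, again Socs3 (-1.07).

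Interferon transcripts themselves were near or under the detection limit. None of the 20 listed interferon genes passed the filter in any comparison. Ifnb1, the first type I interferon that stimulated macrophages make, had 0 counts in all 4 PBS libraries and sums of 5, 11, 10 and 6 counts over RNY1+/+ EVFx, RNY1-/- EVFx, RNY1+/+ ProteinFx and RNY1-/- ProteinFx. These sums overlap library by library, and no order is read from them. Ifng, which encodes interferon gamma, had 1 count in all, in a RNY1-/- ProteinFx library. The absence of counts limits the level in the macrophages at the time of harvest and says nothing of protein carried in the fluid.

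Against PBS, transcripts of the receptor moved in the opposite direction to the ligands. Cxcr3 stood at 9.02, 9.58, 5.26 and 8.19 CPM in PBS. It fell to between 0.125 and 0.801 CPM with RNY1+/+ EVFx and to between 0 and 0.525 CPM with RNY1-/- EVFx, where no library held more than 4 counts. With ProteinFx it lay between 1.01 and 1.76 CPM for RNY1+/+ and between 1.59 and 4.16 CPM for RNY1-/- fluid. Among the fraction-treated groups Cxcr3 did not run opposite to the ligands. Its mean was 0.419 CPM in RNY1+/+ EVFx and 1.47 CPM in RNY1+/+ ProteinFx, the direction of Cxcl10 and Cxcl11. In RNY1-/- ProteinFx it was 2.87 CPM, above RNY1+/+ ProteinFx by mean as Cxcl9 was, with overlap between the libraries. All 4 falls against PBS were called, with log2 fold changes of -4.16 (SE 0.37), -4.48 (SE 0.45), -2.26 (SE 0.28) and -1.34 (SE 0.29, adjusted p = 0.0065, edgeR) in the order RNY1+/+ EVFx, RNY1-/- EVFx, RNY1+/+ ProteinFx and RNY1-/- ProteinFx. The T and natural killer cell markers that could accompany a CXCR3-bearing cell summed to 2.29 to 9.22 CPM in PBS and to 0 to 4.06 CPM in the other groups. Cd4 reached 47 counts in a library, and no other marker of this list exceeded 2. The part of these markers in the Cxcr3 values was not tested. Dpp4, the protease that trims these chemokines, never exceeded 3 counts. Pf4 (Cxcl4, a platelet-type chemokine abundant in macrophages) was measured at 751 to 1216 CPM, with 0 calls in 9 comparisons.

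**Figure D5:**
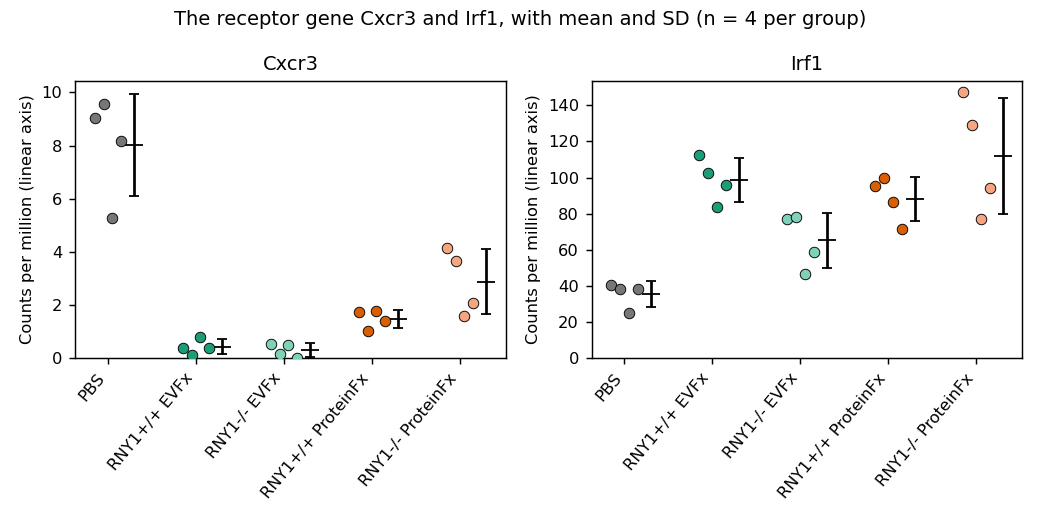
CPM (linear axes from 0) of Cxcr3 and Irf1 in each library by group, with the group mean and SD (n = 4). Cxcr3 is highest in PBS (5.26 to 9.58 CPM) and at or below 0.801 CPM in the EVFx groups, while Irf1 is lowest in PBS (mean 35.5 CPM) and reaches 112 CPM by mean in RNY1-/- ProteinFx.

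Other chemokines of the CXC family, which recruit neutrophils through CXCR2 or bind CXCR6, gave a different contrast between fractions. Of 11 listed, 4 were tested in EVFx against PBS and 4 of 4 were higher, led by Cxcl3 (9.64 with RNY1+/+ EVFx) and Cxcl2 (6.91). RNY1+/+ ProteinFx gave 3 of 4 lower than RNY1+/+ EVFx, namely Cxcl1 (-3.37), Cxcl2 (-2.89) and Cxcl3 (-2.88). Cxcl9 shared that direction between fractions, and Cxcl10 and Cxcl11 did not. By source genotype in ProteinFx, 2 of 3 were lower, Cxcl3 (-2.28, SE 0.43) and Cxcl2 (-1.55, SE 0.28), which is the direction of Cxcl10 and Cxcl11. In EVFx, 1 of 4 was lower by source genotype, Cxcl1 (-1.02). By source genotype, 0.659% of all genes tested were called higher and 1.17% lower in ProteinFx, and 2.35% in either direction in EVFx. Around the ligand genes on chromosome 5, 0 of 9 tested neighbours were called in ProteinFx and 0 of 8 in EVFx. These counts are near the shares over all genes, and the neighbours had medians of 0.18 and 0.37. The nearest on either side, Sdad1 and Nup54, had genotype differences of -0.22 and -0.27 in ProteinFx.

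Within RNY1+/+ EVFx, the highest library exceeded the lowest 3.35 times for Cxcl10 and 1.57 times for Cxcl9. Within RNY1+/+ ProteinFx these ranges were 1.83 times for Cxcl10 and 1.27 times for Cxcl9, the latter on 23 to 41 counts a library. The difference in spread between the genes was not tested. Slfn5, an interferon-induced gene of the Schlafen family, showed the split of Cxcl10 in RNY1+/+ EVFx on a smaller scale, at 415, 404, 294 and 323 CPM.

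The 3 genes most like Cxcl10 after group means were subtracted were Slfn5 (Pearson r 0.94 over 20 libraries, Spearman rho 0.90), Nfxl1 (r 0.91) and Gvin1 (r 0.89). By level, the 5 most like it among 7552 genes were Rsad2 (r 0.99), Slc31a1, Cd69, Mx1 and Gng12 (r 0.98 each). For Cxcl9 they were Arrdc4 (r 0.95), Tmbim4 (r 0.95), Slc35b1 (r 0.94), H2-Q7 (r 0.94) and Psme2b (r 0.93), with no gene among them shared with Cxcl10. Arrdc4, for example, averaged 1.84 times its PBS level in RNY1+/+ ProteinFx and 2.27 to 2.58 times in the other 3 fraction-treated groups. After group means were subtracted, the closest to Cxcl9 reached r of 0.69 (Ccnh) and 0.68 (Bloc1s6). For Cxcl11 the 5 were Slc28a2 (r 0.92), Rapgef2, Gm6377, Cyfip1 and Lyn (r 0.91 each), and within groups Ddx42 (r 0.77), Trim21 (r 0.76) and Gbp7 (r 0.74). Between the ligands themselves r was 0.87 for Cxcl10 with Cxcl11 (Spearman rho 0.93), 0.78 for Cxcl9 with Cxcl10 (rho 0.24) and 0.44 for Cxcl9 with Cxcl11 (rho 0.19). Within groups r was 0.66, 0.40 and 0.08 for these pairs, with rho of 0.62, 0.17 and 0.05. These values describe libraries that fall into treatment groups and share depth, so they carry no test.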

How the data were processed

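The data are 20 RNA libraries of wildtype BMDMs, 4 per treatment. The authors deposited expected counts per gene, which are not whole because reads mapping to several places were shared out as fractions, and CPM, in which the authors had scaled each count by its library's total. The study's methods and processing notes name fastp 0.24.0, STAR 2.7.11 on GRCm39, removal of duplicates by unique molecular identifier with UMIcollapse, and strand-specific counting on exons and 3′ UTRs with featureCounts of Subread 2.1.1. The annotation release is not given in the sources used here. The 92 spike-in rows (at most 0.00305% of a library) were left out of the tests.

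Counts were rounded and tested with edgeR 4.0.16 (R 4.3.3; glmQLFit and glmQLFTest, TMM scaling) on the 8 libraries of each comparison, for genes kept by filterByExpr with a mean of at least 3 CPM. The SE was obtained from the fold change and its F statistic. The interaction used 16 libraries and adjusted p alone. The alternatives included DESeq2 1.42.0, and the step was tested on simulated data. Levels of neighbouring groups and ratios were compared by exact two-sided permutation tests. The labels number replicates in every group and do not say what a number shares. All 4 same-numbered pairs of libraries deviated together (correlation above 0.1) between RNY1-/- EVFx and PBS (0.17 to 0.49) and between RNY1-/- EVFx and RNY1-/- ProteinFx (0.19 to 0.50), and not between the other 8 pairs of groups. Between PBS and RNY1-/- ProteinFx, 3 of 4 did (0.046 to 0.73 over the 4), and 6 of 8 libraries were closest to their own number. Intervals cover counting error only, and counts of 3 or fewer were treated as the floor. Figures and tables used python 3.11.15 and scipy 1.17.1.

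The members and gene lists were chosen with earlier results of these data known. Named genes are the members, up to 4 called genes per list with the largest fold change, Cxcr3, Dpp4, Ifnb1, Ifng, Stat2, Irf1 and Irf9, and the genes closest to each member by Pearson r of log2 CPM (prior count 2, mean of at least 10 CPM). Sdad1 and Nup54 were named for their position and Pf4, Cxcl1, Cxcl2 and Cxcl3 as list members. Sequences are from RefSeq. Some items that this rule names are not reported here.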

Additional observations from a re-analysis of the deposited data

Results flagged for a closer look

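In the 15 sets of 4 values formed by 3 ligand genes and 5 groups, the PBS group gave both cases of a library far from the others. Cxcl10 read 2.66 CPM in the first PBS library against 5.52 to 5.95 CPM in the other 3, a gap of 0.869 of the range and above Dixon's limit for 4 values. Cxcl11 read 0.154 CPM in the second PBS library and 0 in the others, which is 1 count. Chance alone gives such a gap in about 1 of 20 sets of normally distributed values. That rate does not apply to Cxcl11, where 1 count among zeros always makes the gap as large as the range. The source genotype difference itself differed between ProteinFx and EVFx by 1.55 for Cxcl9 and by -2.85 for Cxcl10 on the log2 scale, tested as an interaction with edgeR (adjusted p of 0.0052 and 0.0017).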

How the results depend on the processing

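Of 1048 recomputed values, 1044 were counted as unchanged, among them all 689 that left out 1 library. A number of members called that went from 3 to 2 was counted as unchanged. For steps and ratios with 1 library left out, so was a move smaller than the SD, whatever its sign. Leaving out RNY1-/- ProteinFx replicates 1 and 2 took the ligands called in RNY1-/- ProteinFx against RNY1-/- EVFx from 1 to 0. With no filter on low counts, Cxcl11 was called against PBS at 4.22, 4.61 and 3.72 with RNY1+/+ EVFx, RNY1-/- EVFx and RNY1-/- ProteinFx, and its interaction term was -3.34. With filterByExpr alone that term was -3.42. The step of Cxcl9 from RNY1-/- EVFx to RNY1-/- ProteinFx turned from -0.03 to 0.13 with TMM-scaled CPM, and the genotype difference of the Cxcl11 to Cxcl10 ratio in EVFx from 0.03 to -0.0305 with 1 count added, both within the spread. The 3 CPM limit removed Cxcl11 in RNY1+/+ ProteinFx against PBS when replicate 1, 2 or 4 of that group was left out, and by source genotype and against RNY1+/+ EVFx when replicate 2 or 4 was, which leaves 2 to 3 members called. Of 10 pairs of groups, 2 had all 4 same-numbered pairs of libraries correlated above 0.1, and in none was every library closest to its own number. The replicate block changed no call, with Cxcl10, RNY1-/- ProteinFx against RNY1+/+ ProteinFx, at -2.39 (adjusted p = 0.0029, edgeR). In EVFx, where numbers did not pair the libraries by that measure, Cxcl10, RNY1-/- EVFx against RNY1+/+ EVFx, went from 0.49 (adjusted p = 0.22) to 0.59 (adjusted p = 0.0022, edgeR) with the block, under the fold limit of 1 in both, and was higher with RNY1-/- in 4 of 4 same-numbered pairs. Cxcl11 rests on 117 or fewer counts per group, and it was not tested in any comparison once every library was thinned to the smallest.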
